A study of Arabidopsis thaliana with 2 samples.

Results

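The genes described here are 39 *Arabidopsis thaliana* genes of the cell cycle and of cytokinesis, chosen by locus from a table of 33602 genes. They are 3 D3-type cyclins, 8 A-type cyclins, 9 B-type cyclins, 4 B-type cyclin-dependent kinases, 2 MYB3R transcription factors, 5 genes of the mitotic spindle, the Aurora kinases and the centromere, 2 CDC20 activators and 6 cytokinesis genes. Transcripts were sequenced from the aerial parts of *35S:SsCBF1-11* seedlings and of Col-0, the wild-type accession, with 1 library of each genotype. *35S:SsCBF1-11* is 1 Arabidopsis line that expresses *SsCBF1*, a C-repeat binding factor gene of the wild nightshade *Solanum lycopersicoides*, from the constitutive 35S promoter of cauliflower mosaic virus. Both groups of plants were 4 weeks old, unstressed and grown side by side at 22 °C in days of 16 h light and 8 h dark, and 20 plants of a genotype were pooled before RNA extraction. The pools had no replicate, so the tests below compare 2 libraries and not the genotypes.

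In plants, D-type cyclins respond to hormones and sugar and, with the kinase CDKA, start the path into DNA synthesis, A-type cyclins act from DNA synthesis to mitosis, and B-type cyclins with the plant-specific B-type kinases drive mitosis. Many mitotic genes carry mitosis-specific activator (MSA) elements, which MYB3R transcription factors bind. Division ends when the phragmoplast, an array of microtubules and vesicles, builds the new cell plate, and in shoots these events take place mainly in meristems and young organs.

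The *35S:SsCBF1-11* library held 6669454 reads assigned to 20930 genes, and the Col-0 library held 9120358 reads assigned to 21703 genes. Leaf genes were abundant in both libraries and root genes were close to 0. The small-subunit Rubisco gene *RBCS1A* (AT1G67090) had 112764 reads in *35S:SsCBF1-11* and 134636 in Col-0, while 4 root genes together had 0 reads in *35S:SsCBF1-11* and 2 in Col-0. Over the 22319 genes with at least 1 read, 187 were called lower and 119 higher in *35S:SsCBF1-11*, so that 38.9% of the calls were higher, against 49.1% when the libraries were scaled with DESeq2's size factors. Calling a gene required an adjusted p under 0.001 (exact two-sided binomial test of its reads against the libraries' shares of all reads, Benjamini-Hochberg over all genes tested) together with a fold above 2.

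All 39 genes had reads, and 35 of them had at least 10 reads in both libraries together. The 39 genes together took 1052 reads in *35S:SsCBF1-11*, or 158 RPM (reads per 1000000 reads assigned to genes), and 2242 reads in Col-0, or 246 RPM. Of the 35 genes, 31 had a ratio below 1, a property of 58.6% of all genes with at least 10 reads. 1 of the 31, the B2-type cyclin gene AT1G76310, had 7 reads in *35S:SsCBF1-11* and 10 in Col-0, and its ratio passed 1 under 3 other scalings. 12 of the 35 were more than 2-fold lower in *35S:SsCBF1-11*, beside 5.14% of all genes, and 0 were more than 2-fold higher, beside 1.89%. Of the 12, the Aurora kinase gene *AUR2* and the cytokinesis gene *TETRASPORE* came inside 2-fold under 3 other scalings. The cytokinesis gene *KNOLLE* passed 2-fold where nuclear protein-coding genes alone were kept. The median log2 ratio (with 0.5 reads added to each count) was -0.66 for the 35 genes and -0.07 for the 18443 genes with at least 10 reads. Over the 15726 genes with at least 10 reads and no more reads than the most abundant of the 39, the median was -0.09. The 39 genes were chosen with earlier results of these data known, so these contrasts with all genes are descriptive.

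3 of the 39 genes were called lower, the B-type kinase gene AT1G76540 and the microtubule genes *POK2* and *TPX2*, beside 0.838% of all genes tested, and 0 were called higher, beside 0.533%. Without the fold threshold, 11 genes were lower at an adjusted p under 0.05, beside 7.18% of all genes, and 0 were higher at that threshold, beside 4.50%. The 11 are the D3-type cyclins AT4G34160 and AT5G67260, the B1-type cyclin AT5G06150, the kinase gene AT1G76540, *AUR2*, *TPX2*, *CDC20.1*, *POK2*, *KNOLLE*, *HINKEL* and *MAP65-3*. At an unadjusted p under 0.05, 16 were lower, beside 13.5% of all genes, and 0 were higher, beside 7.71%. These p-values cover the counting of reads and not the spread between pools, and in pooled whole shoots fewer dividing cells and less RNA per cell cannot be told apart.

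**Figure D1:**
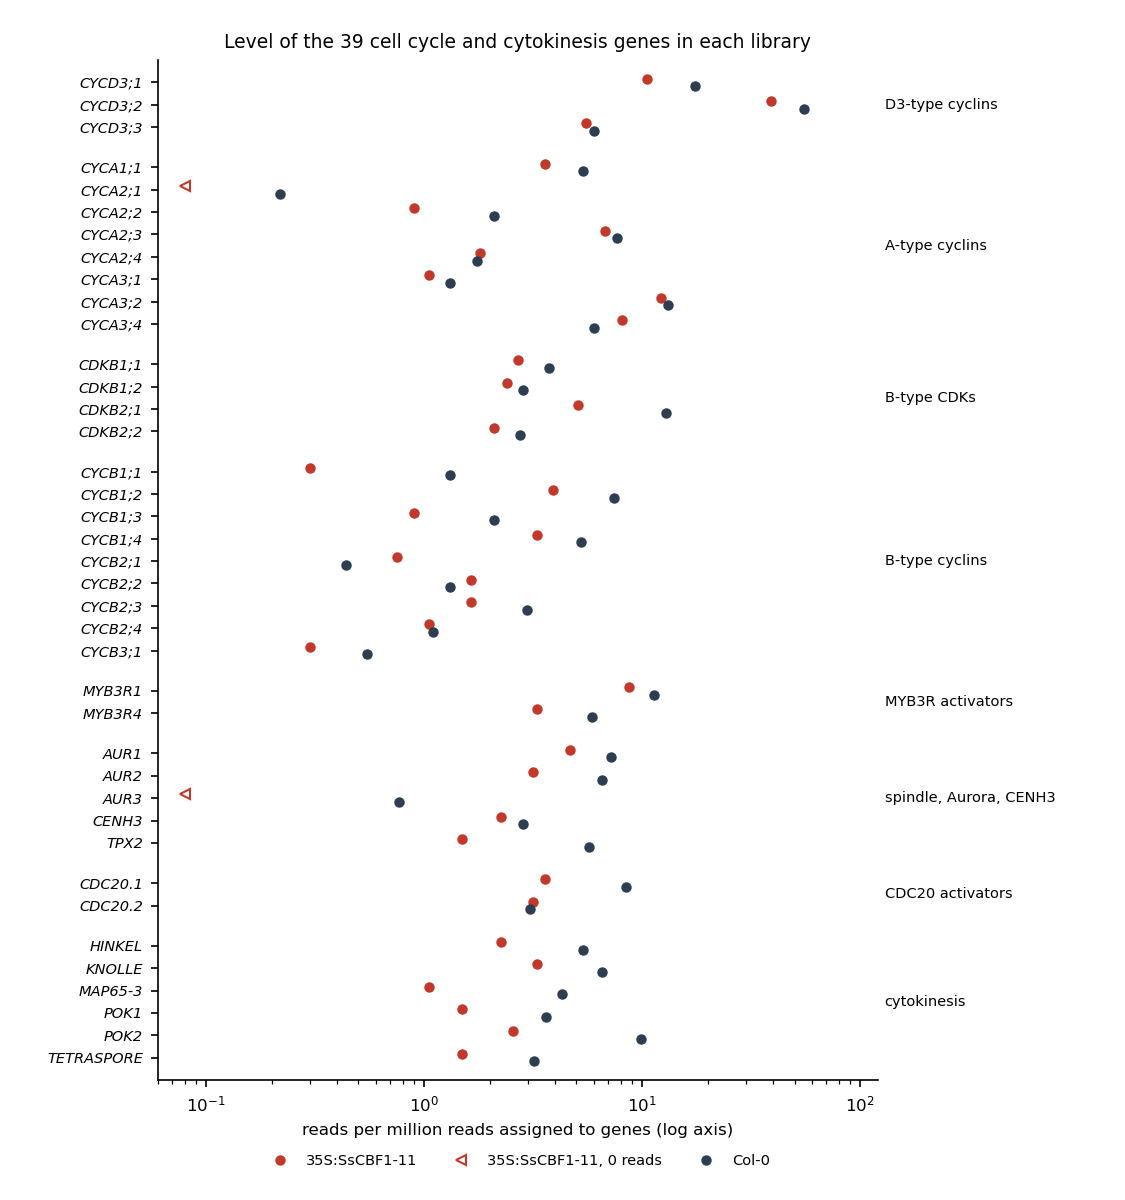
Level of each of the 39 genes in RPM (log axis), in the *35S:SsCBF1-11* library (red) and the Col-0 library (dark blue), by role, with open triangles for 0 reads, which have no place on a log axis. The red point lies left of the dark one in most rows, and the D3-type cyclin AT5G67260 has the highest level of the 39 in both libraries.

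**Figure D2:**
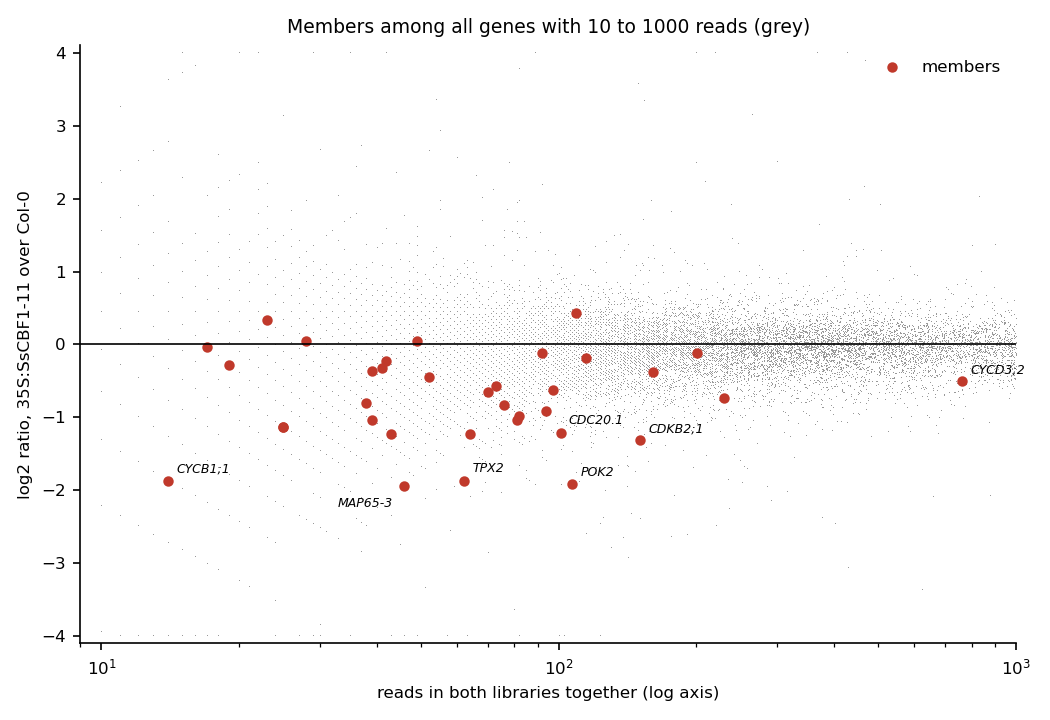
Log2 ratio of *35S:SsCBF1-11* over Col-0 against the reads in both libraries together (log axis) for the members (red) and all other genes with at least 10 reads in this range (grey, the most extreme ratios drawn at the edge). Most red points lie below 0, and *POK2* lies among the lowest grey points at its depth.

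The letters of the MSA core, AACGG, were searched on both strands in the 250 bases upstream of the annotated start of each gene, because many of the members are known MYB3R targets. The core was found upstream of 21 of the 39 genes (53.8%), and upstream of 5645 of 27443 nuclear protein-coding genes (20.6%). As known targets are among the members, the contrast with all genes is descriptive and not independent of that choice. At least 2 cores were found for 12 of the 39 (30.8%) and for 3.62% of all genes. The E2F sites TTTCCCGC and TTTGGCGC were found, on either strand, upstream of 1 member, the D3-type cyclin AT3G50070, and of 0.958% of all genes. CCGAC, the core of the C-repeat that CBF proteins bind, was found for 2 members, AT1G76310 and *KNOLLE* (5.13%), and for 12.0% of all genes. No match of 1 motif overlapped a match of another. A match is a description of the letters and not a binding site.

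The windows of 60 bases that follow are examples. They hold MSA cores upstream of 4 microtubule genes that were more than 2-fold lower, and 2 cores each upstream of 3 of the B1-type cyclins. The 250 bases upstream hold 3 cores for AT4G37490, 4 for AT5G06150 and 3 for AT3G11520, so the windows leave some out. Of the cytokinesis genes more than 2-fold lower, *TETRASPORE*, with 2 cores, is not shown, and *POK1* has no core in its 250 bases. The windows come from the TAIR10.1 reference genome, read 5′ to 3′ on the strand of the gene, and capitals mark each match of AACGG or of its reverse complement CCGTT. The *POK2* window lies on the plus strand at chr3:6577568-6577627, within 250 bases that overlap an annotated long non-coding RNA, AT3G03795. The other windows lie on the minus strand, those of *TPX2* at chr1:951884-951943, *MAP65-3* at chr5:20964618-20964677 and *HINKEL* at chr1:6324379-6324438, and those of the cyclins AT4G37490 at chr4:17624317-17624376, AT5G06150 at chr5:1861739-1861798 and AT3G11520 at chr3:3627278-3627337.
POK2: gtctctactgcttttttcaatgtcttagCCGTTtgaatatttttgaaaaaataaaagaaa
TPX2: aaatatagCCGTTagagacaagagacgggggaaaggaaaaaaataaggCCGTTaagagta
MAP65-3: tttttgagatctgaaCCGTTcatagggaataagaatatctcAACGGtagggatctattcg
HINKEL: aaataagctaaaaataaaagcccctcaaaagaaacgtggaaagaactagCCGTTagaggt
AT4G37490: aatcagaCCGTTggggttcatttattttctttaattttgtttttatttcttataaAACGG
AT5G06150: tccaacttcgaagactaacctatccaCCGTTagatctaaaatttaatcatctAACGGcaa
AT3G11520: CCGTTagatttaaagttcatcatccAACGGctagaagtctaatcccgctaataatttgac

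The MSA core was found for 6 of 9 B-type cyclins, each with at least 2 cores, for 5 of 6 cytokinesis genes and for 4 of 5 genes of the spindle group. It was found for 3 of 8 A-type cyclins, 1 of 3 D3-type cyclins, 1 of 4 B-type kinases, 1 of 2 MYB3R genes and 0 of 2 CDC20 genes. Among genes with at least 10 reads, the 19 with a core had a median log2 ratio of -0.92, and 8 of them were more than 2-fold lower. The 16 without one had a median of -0.30, and 4 of them were more than 2-fold lower, namely AT1G76540, *CDC20.1*, *POK1* and the A2-type cyclin AT5G11300. The ranges overlapped widely, from -1.95 to 0.33 with a core and from -1.32 to 0.43 without. Genes with and without a core also differ in role, so core and role cannot be told apart in these medians.

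**Figure D3:**
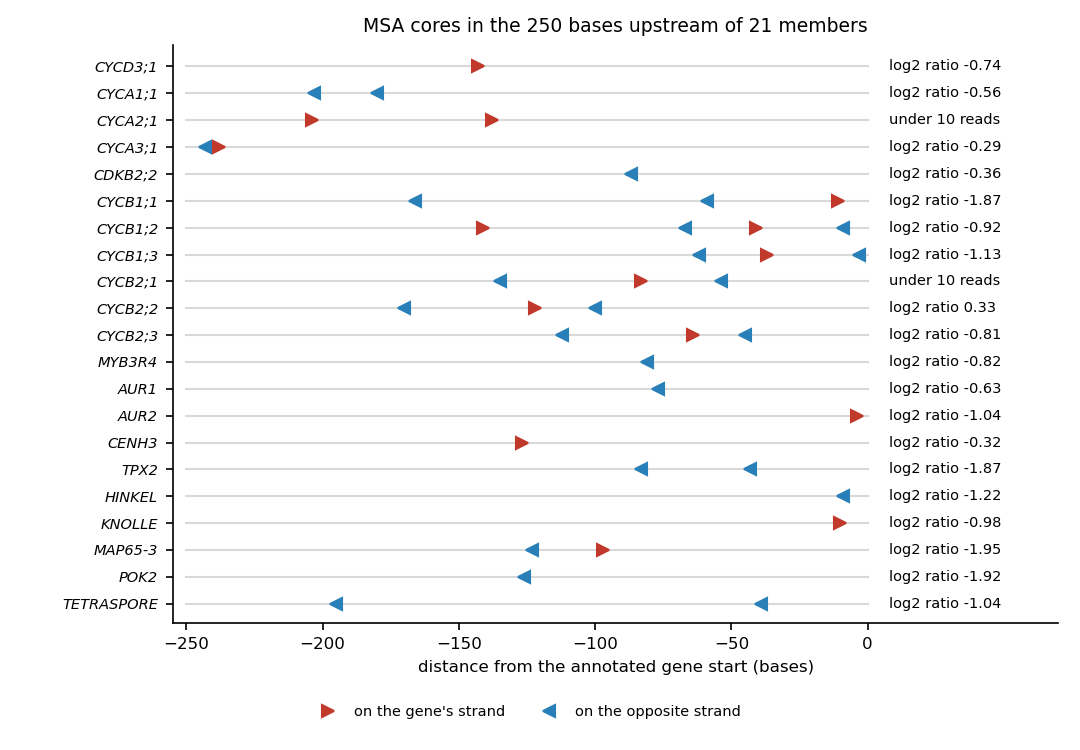
Position of each MSA core in the 250 bases upstream of the annotated start of 21 members, pointing right (red) on the strand of the gene and left (blue) on the other strand, with the log2 ratio of *35S:SsCBF1-11* over Col-0 at the right. 3 of the 4 *CYCB1* genes, *TPX2* and *MAP65-3* have 2 or more cores, *POK2* and *HINKEL* 1 each, and a B2-type cyclin, AT4G35620, with 3 cores, had a ratio above 1.

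The D3-type cyclins, which act early and keep cells of young leaves dividing, held the most abundant transcript of the 39. *CYCD3;2* (AT5G67260) had 259 reads in *35S:SsCBF1-11* and 504 in Col-0, or 27.4 and 39.1 RPKM (reads scaled to the length of the gene and to the total of the library), and was 1.42-fold lower (exact 95% interval 1.22 to 1.66, adjusted p = 7.34e-05, exact binomial test). *CYCD3;1* (AT4G34160), which cytokinin induces, had 70 reads in *35S:SsCBF1-11* and 160 in Col-0 and was 1.67-fold lower (1.25 to 2.25, adjusted p = 0.00416, exact binomial test). Both differences passed an adjusted p of 0.05 (66.7% of the list, beside 7.18% of all genes lower) and neither reached 2-fold. *CYCD3;3* (AT3G50070) had 37 reads in *35S:SsCBF1-11* and 55 in Col-0, a ratio of 0.920 (0.590 to 1.42) that the test did not separate from 1.

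None of the A-type cyclins passed the test. Their reads summed to 229 in *35S:SsCBF1-11* and 343 in Col-0 (34.3 and 37.6 RPM), their median log2 ratio over the 7 genes with at least 10 reads was -0.18, and 0 of 8 had an adjusted or an unadjusted p under 0.05. Over all genes, 7.18% were lower and 4.50% higher at an adjusted p under 0.05. *CYCA3;2* (AT1G47210), the most abundant of them, had 81 reads (8.17 RPKM) in *35S:SsCBF1-11* and 120 (8.85 RPKM) in Col-0. *CYCA3;4* (AT1G47230) had 54 reads in *35S:SsCBF1-11* and 55 in Col-0, which is a ratio of 1.34 (0.905 to 1.99) and the highest log2 ratio, 0.43, among the 35 genes with at least 10 reads. *CYCA2;3* (AT1G15570), known to hold back endoreduplication, had 45 reads in *35S:SsCBF1-11* and 70 in Col-0, a ratio of 0.879 (0.591 to 1.30). *CYCA1;1* (AT1G44110) had 24 reads in *35S:SsCBF1-11* and 49 in Col-0 (log2 ratio -0.56), and *CYCA2;2* (AT5G11300) had 6 reads in *35S:SsCBF1-11* and 19 in Col-0 (log2 ratio -1.13). The interval of this last ratio reached from 0.141 to 1.12, so a difference of that size was not detectable at this depth. The A2-type AT1G80370 with 12 reads in *35S:SsCBF1-11* and 16 in Col-0, the A3-type AT5G43080 with 7 reads in *35S:SsCBF1-11* and 12 in Col-0, and the A2-type AT5G25380 with 0 reads in *35S:SsCBF1-11* and 2 in Col-0 were too shallow to show a 2-fold difference.

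The B-type kinases are plant-specific, and 1 of the 4 was called lower (25.0%, beside 0.838% of all genes). *CDKB2;1* (AT1G76540, chr1:28720328-28722550, minus strand), a kinase of late G2 and mitosis, had 34 reads in *35S:SsCBF1-11* and 117 in Col-0, or 3.81 and 9.59 RPKM. It was 2.52-fold lower (ratio 0.397, interval 0.263 to 0.587, adjusted p = 1.51e-05, exact binomial test). Its close relative *CDKB2;2* (AT1G20930) had 14 reads in *35S:SsCBF1-11* and 25 in Col-0 and a ratio of 0.766 (0.368 to 1.53). *CDKB1;1* (AT3G54180) had 18 reads in *35S:SsCBF1-11* and 34 in Col-0 (log2 ratio -0.45), and *CDKB1;2* (AT2G38620) had 16 reads in *35S:SsCBF1-11* and 26 in Col-0 (log2 ratio -0.23). All 4 ratios lay below 1, beside 58.6% of all genes with at least 10 reads, and apart from the called gene the intervals included 1. 22.8% of the exon bases of AT2G38620 overlap AT2G38630 on the other strand, which had 30 reads in *35S:SsCBF1-11* and 35 in Col-0, and 13.8% of those of AT1G20930 overlap AT1G20925, which had 0 reads in both libraries.

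Of the B-type cyclins, which activate these kinases in mitosis, 1 of 9 was lower at an adjusted p under 0.05 (11.1%, beside 7.18% of all genes). None was called, beside 0.838% of all genes called lower. Their reads summed to 92 in *35S:SsCBF1-11* and 205 in Col-0 (13.8 and 22.5 RPM), and the median log2 ratio was -0.81 over the 7 genes with at least 10 reads. *CYCB1;2* (AT5G06150), the most abundant, had 26 reads (2.32 RPKM) in *35S:SsCBF1-11* and 68 (4.44 RPKM) in Col-0 and was 1.91-fold lower (1.20 to 3.13, adjusted p = 0.0407, exact binomial test). *CYCB1;4* (AT2G26760) had 22 reads in *35S:SsCBF1-11* and 48 in Col-0 (ratio 0.627, 0.360 to 1.06). *CYCB1;3* (AT3G11520) had 6 reads in *35S:SsCBF1-11* and 19 in Col-0, a log2 ratio of -1.13. *CYCB1;1* (AT4G37490), whose promoter is widely used to mark dividing cells, had only 2 reads in *35S:SsCBF1-11* and 12 in Col-0, and its ratio of 0.228 had an interval of 0.0248 to 1.02. The 4 *CYCB1* genes thus all had ratios below 1, beside 58.6% of all genes with at least 10 reads. The *CYCB2* genes were mixed. *CYCB2;3* (AT1G20610) had 11 reads in *35S:SsCBF1-11* and 27 in Col-0 (log2 ratio -0.81), and 13.7% of its stretches of 100 bases, the length of a read, also occur in AT1G20590. *CYCB2;2* (AT4G35620) had 11 reads in *35S:SsCBF1-11* and 12 in Col-0 (log2 ratio 0.33) and *CYCB2;4* (AT1G76310) had 7 reads in *35S:SsCBF1-11* and 10 in Col-0 (log2 ratio -0.034, and above 0 under 3 other scalings). The B2-type AT2G17620 with 5 reads in *35S:SsCBF1-11* and 4 in Col-0 and the B3-type AT1G16330 with 2 reads in *35S:SsCBF1-11* and 5 in Col-0 were under 10 reads in all.

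The MYB3R genes among the 39 encode factors that bind MSA elements, and neither passed an adjusted p of 0.05. *MYB3R1* (AT4G32730) had 58 reads (2.48 RPKM) in *35S:SsCBF1-11* and 103 (3.22 RPKM) in Col-0, a ratio of 0.770 (0.548 to 1.07). *MYB3R4* (AT5G11510) had 22 reads in *35S:SsCBF1-11* and 54 in Col-0, a ratio of 0.557 (0.323 to 0.930) with an exact p of 0.02 that became 0.124 after adjustment. The repressor-type *MYB3R-3* (AT3G09370) and *MYB3R-5* (AT5G02320) are not among the 39 and are named after their values were seen. *MYB3R-3* had 17 reads in *35S:SsCBF1-11* and 20 in Col-0 (log2 ratio 0.22), *MYB3R-5* had 15 reads in *35S:SsCBF1-11* and 12 in Col-0 (log2 ratio 0.76), and neither passed the test.

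In the spindle group all 4 genes with at least 10 reads had ratios below 1, beside 58.6% of all genes. Of the 5 genes with reads, 1 was called lower (20.0%, beside 0.838% of all genes). *TPX2* (AT1G03780, chr1:947520-951850, minus strand), which builds spindle microtubules around the nucleus and activates Aurora kinase, had 10 reads in *35S:SsCBF1-11* and 52 in Col-0, or 0.591 and 2.25 RPKM. It was 3.80-fold lower (1.91 to 8.39, adjusted p = 3.01e-04, exact binomial test). The Aurora kinases *AUR1* and *AUR2* act at the spindle and the cell plate. *AUR2* (AT2G25880) had 21 reads in *35S:SsCBF1-11* and 60 in Col-0 and was 2.09-fold lower (1.25 to 3.62, adjusted p = 0.0306, exact binomial test), which missed the stricter call. *AUR1* (AT4G32830), the most abundant of the group per length, had 31 reads (3.97 RPKM) in *35S:SsCBF1-11* and 66 (6.18 RPKM) in Col-0, a log2 ratio of -0.63 with an adjusted p of 0.203 (exact binomial test). 19.2% of the exon bases of *AUR1* overlap *PFK6*, a gene on the other strand with 21 reads in *35S:SsCBF1-11* and 51 in Col-0, and the library preparation does not mark strand. *AUR3* (AT2G45490), which acts at centromeres, had 0 reads in *35S:SsCBF1-11*, where up to 3 reads are allowed by a count of 0, and 7 in Col-0, so it was at least 1.71-fold lower (1.05-fold where the counting error of both libraries is taken in), with an adjusted p of 0.141 (exact binomial test) that did not pass. *CENH3* (AT1G01370), the histone that defines centromeres, had 15 reads in *35S:SsCBF1-11* and 26 in Col-0, a ratio of 0.789 (0.388 to 1.55).

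The CDC20 genes encode activators of the anaphase-promoting complex, which marks mitotic cyclins for destruction. *CDC20.1* (AT4G33270) had 24 reads (2.03 RPKM) in *35S:SsCBF1-11* and 77 (4.77 RPKM) in Col-0 and was 2.35-fold lower (1.47 to 3.88, adjusted p = 0.00253, exact binomial test). Its neighbour *CDC20.2* (AT4G33260), which lies next to it on the minus strand of chromosome 4, had 21 reads in *35S:SsCBF1-11* and 28 in Col-0, a ratio of 1.03 (0.554 to 1.87). 20.6% of the 100-base stretches of *CDC20.1* also occur in *CDC20.2*, so some of their reads could have been assigned to either gene.

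The cytokinesis genes stood lowest of the 8 role groups. Their reads summed to 81 in *35S:SsCBF1-11* and 300 in Col-0 (12.1 and 32.9 RPM), and the median log2 ratio was -1.22. More than 2-fold lower were 5 of 6, beside 5.14% of all genes, and 4 of 6 were lower at an adjusted p under 0.05, beside 7.18%. The count of 5 depends on the scaling, as *TETRASPORE* had a log2 ratio of -0.97 with DESeq2's size factors. *KNOLLE* had one of -1.01 where nuclear protein-coding genes alone were kept. *POK2* (AT3G19050, chr3:6577724-6590253, plus strand), a kinesin that guides the phragmoplast to the division site, had 17 reads in *35S:SsCBF1-11* and 90 in Col-0, or 0.296 and 1.15 RPKM. It was 3.87-fold lower (2.29 to 6.94, adjusted p = 2.50e-07, exact binomial test), the smallest p of the 39. *POK1* (AT3G17360), which shares that role, had 10 reads in *35S:SsCBF1-11* and 33 in Col-0 and was 2.41-fold lower (1.16 to 5.49, adjusted p = 0.0904, exact binomial test), so it did not pass the threshold. *MAP65-3* (AT5G51600), which bundles microtubules at the middle of the phragmoplast, had a log2 ratio of -1.95, with 7 reads in *35S:SsCBF1-11* and 39 in Col-0. It was 4.07-fold lower (1.80 to 10.8) with an adjusted p of 0.00213 (exact binomial test), short of the call at 0.001.

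*HINKEL* (AT1G18370) and *TETRASPORE* (AT3G43210) encode related kinesins that signal the phragmoplast to expand, *TETRASPORE* being known for the divisions of male meiosis. *HINKEL* had 15 reads in *35S:SsCBF1-11* and 49 in Col-0 and was 2.39-fold lower (1.32 to 4.59, adjusted p = 0.0224, exact binomial test). *TETRASPORE* had 10 reads in *35S:SsCBF1-11* and 29 in Col-0 (log2 ratio -1.04, adjusted p = 0.188, exact binomial test). Only the first passed the threshold of 0.05. *KNOLLE* (AT1G08560), the syntaxin that fuses vesicles into the cell plate and the most abundant gene of the group per length, had 22 reads (2.77 RPKM) in *35S:SsCBF1-11* and 60 (5.52 RPKM) in Col-0 and was 1.99-fold lower (1.21 to 3.41, adjusted p = 0.0434, exact binomial test). 33.5% of its exon bases overlap *NPQ1* on the other strand, which had 87 reads in *35S:SsCBF1-11* and 95 in Col-0, and how many reads of that stretch came from either gene was not tested.

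**Figure D4:**
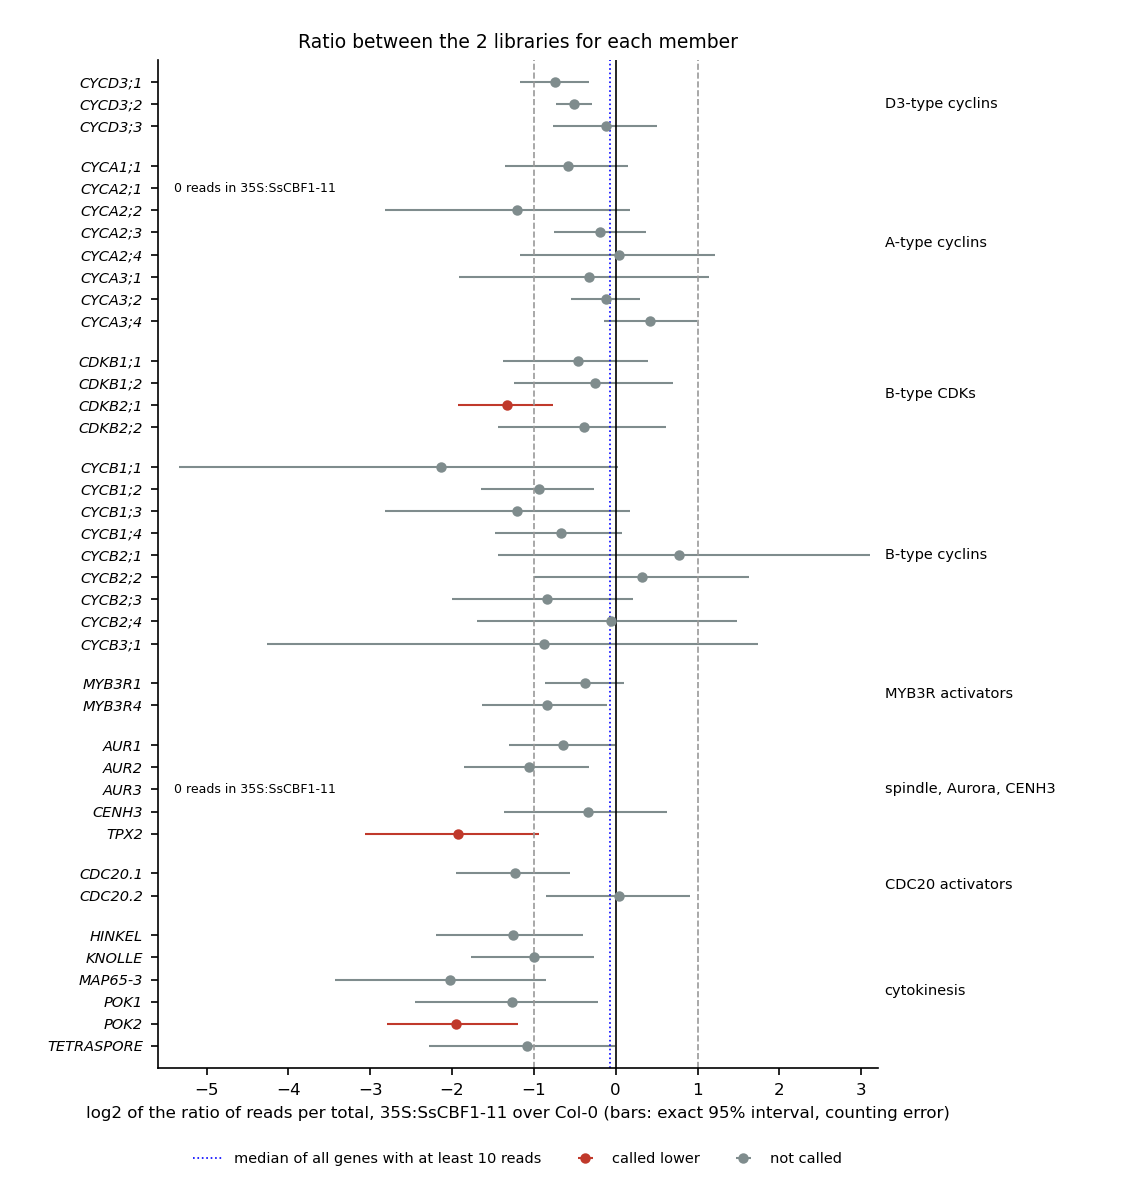
Log2 of the ratio of reads per library total, *35S:SsCBF1-11* over Col-0, for each member with reads in both libraries (points, no reads added), with the exact 95% interval for counting error (bars), by role. Dashed lines mark 2-fold and the dotted line the median of all genes. The 3 called genes (red) lie left of the line at -1, and all 6 cytokinesis genes lie left of 0.

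Pairs of related members were compared by Fisher's exact test on their 4 read counts, in 10 pairs with adjustment over the pairs. The ratio of *CDC20.1* was 0.418 times that of *CDC20.2* (0.189 to 0.921), with an exact p of 0.0225 and an adjusted p of 0.225. Among the B2-type kinases the ratio of AT1G76540 was 0.521 times that of AT1G20930 (0.230 to 1.21, adjusted p = 0.386, Fisher's exact test). For *POK2* over *POK1* it was 0.625 (0.241 to 1.69), for *AUR2* over *AUR1* 0.746 (0.365 to 1.51), and for *MYB3R4* over *MYB3R1* 0.724 (0.380 to 1.35). None of the 10 pairs passed an adjusted p of 0.05, so a member that was called beside a relative that was not is not shown to differ from it. The intervals leave room for differences of more than 2-fold in 9 pairs, the exception being the D3-type cyclins AT4G34160 over AT5G67260 (0.851, 0.609 to 1.18).

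The rest of the cell division machinery was read from 108 further genes. Of these, 99 had at least 10 reads, with a median log2 ratio of -0.29. Ratios below 1 were found for 75 of the 99 (75.8%, beside 58.6% of all genes), and 12 were more than 2-fold lower, beside 5.14% of all genes. At an adjusted p under 0.05, 9 of the 107 with reads were lower (8.41%, beside 7.18% of all genes) and 1 was higher (0.935%, beside 4.50%). Only 1 was called lower (0.935%, beside 0.838%). At these thresholds the shares of lower genes were close to those over all genes, and the share of higher genes was smaller. The called gene was the DNA topoisomerase gene *TOPII* (AT3G23890), which untangles sister chromosomes, with 47 reads in *35S:SsCBF1-11* and 148 in Col-0 (log2 ratio -1.19, adjusted p = 4.33e-06, exact binomial test).

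At entry into the cycle, the 8 genes of the retinoblastoma and E2F group with at least 10 reads had a median log2 ratio of 0.01, the 11 inhibitors of cyclin-dependent kinases 0.05 and the 8 other kinases and their partners -0.19. In these lists 0 genes passed an adjusted p of 0.05, beside 7.18% of all genes lower and 4.50% higher. *RBR1* (AT3G12280), the plant retinoblastoma protein, had 216 reads in *35S:SsCBF1-11* and 349 in Col-0 (log2 ratio -0.24). Among the other D-type cyclins, the D1-type AT1G70210 had 87 reads in *35S:SsCBF1-11* and 207 in Col-0 (log2 ratio -0.79, adjusted p = 1.83e-04, exact binomial test). It was the sole gene of that list to pass an adjusted p of 0.05 (14.3% of the 7 with reads), and the median of the list was -0.53.

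All 14 genes of DNA replication with at least 10 reads had ratios below 1, beside 58.6% of all genes, with a median log2 ratio of -0.52. *MCM4*, *MCM5*, *TSO2* and *RNR1* were lower at an adjusted p under 0.05, which is 4 of the 16 with reads (25.0%, beside 7.18% of all genes). *MCM4* (AT2G16440), a subunit of the helicase that opens DNA for replication, had 43 reads in *35S:SsCBF1-11* and 116 in Col-0 (log2 ratio -0.97), and *MCM5* (AT2G07690) had 51 reads in *35S:SsCBF1-11* and 120 in Col-0 (log2 ratio -0.77). *TSO2* and *RNR1*, named after their values were seen, encode subunits of ribonucleotide reductase, which makes the building blocks of DNA. None of the 14 was more than 2-fold lower.

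The 14 genes of the spindle checkpoint and mitotic kinesins had a median log2 ratio of -0.72. Of them, 2 (14.3%, beside 7.18% of all genes), *TOPII* and AT2G28620, were lower at an adjusted p under 0.05. AT2G28620 had 14 reads in *35S:SsCBF1-11* and 52 in Col-0 (log2 ratio -1.40). The 16 subunits, activators and inhibitors of the anaphase-promoting complex had a median of -0.23 and 0 passed. The 20 other phragmoplast and division-site genes had a median of -0.36. In that list *KINESIN-12B* (AT3G23670), with 15 reads in *35S:SsCBF1-11* and 52 in Col-0, and AT4G14330, with 15 reads in *35S:SsCBF1-11* and 54 in Col-0, were lower at an adjusted p under 0.05, with log2 ratios of -1.31 and -1.36. These genes make up 10.0% of the list, beside 7.18% of all genes. The mitogen-activated kinase gene *MPK4* (AT4G01370), named after its values were seen, was the 1 higher gene, with 447 reads in *35S:SsCBF1-11* and 500 in Col-0 and a log2 ratio of 0.29.

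Markers of other tissues differed as well. Of 14 shoot meristem and young organ genes with at least 10 reads, 11 had ratios below 1 (78.6%, beside 58.6% of all genes). Their median log2 ratio was -0.72. *STM* (AT1G62360) and *KNAT1* (AT4G08150), which keep meristem cells undifferentiated, were called lower (11.1% of the 18 with reads, beside 0.838% of all genes). *STM* had 54 reads in *35S:SsCBF1-11* and 157 in Col-0, and *KNAT1* had 41 reads in *35S:SsCBF1-11* and 250 in Col-0. *CLV1* (AT1G75820), a meristem receptor kinase and the gene of the list with the most reads, had 234 reads in *35S:SsCBF1-11* and 253 in Col-0 (log2 ratio 0.34, adjusted p = 0.0767, exact binomial test), and was named after its values were seen. The list as a whole, of 19 genes, summed to 80.5 RPM in *35S:SsCBF1-11* and 121 RPM in Col-0. The 10 flower and anther genes summed to 3.45 RPM in *35S:SsCBF1-11* and 36.7 RPM in Col-0, and *GRP17* (AT5G07530) and *ATA27* (AT1G75940) had 0 reads in *35S:SsCBF1-11* and 123 and 103 in Col-0. *PI* (AT5G20240), with 3 reads in *35S:SsCBF1-11* and 30 in Col-0, was also called lower. All 6 genes of that list with at least 10 reads had ratios below 1, beside 58.6% of all genes. The 3 called genes are 33.3% of the 9 with reads, beside 0.838% of all genes. The meristem gene *WUS* (AT2G17950) had 0 reads in *35S:SsCBF1-11* and 1 in Col-0, and AT2G27250 of the meristem list and AT5G22260 of the flower list had 0 reads in both libraries. The 6 mature leaf genes all had ratios above 1, beside 7634 of the 18443 genes with at least 10 reads, and their median log2 ratio was 0.36. The paper reports that plants of this line flowered later than Col-0. The part of that delay and of these differences in tissue markers in the ratios of the 39 genes was not tested.

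**Figure D5:**
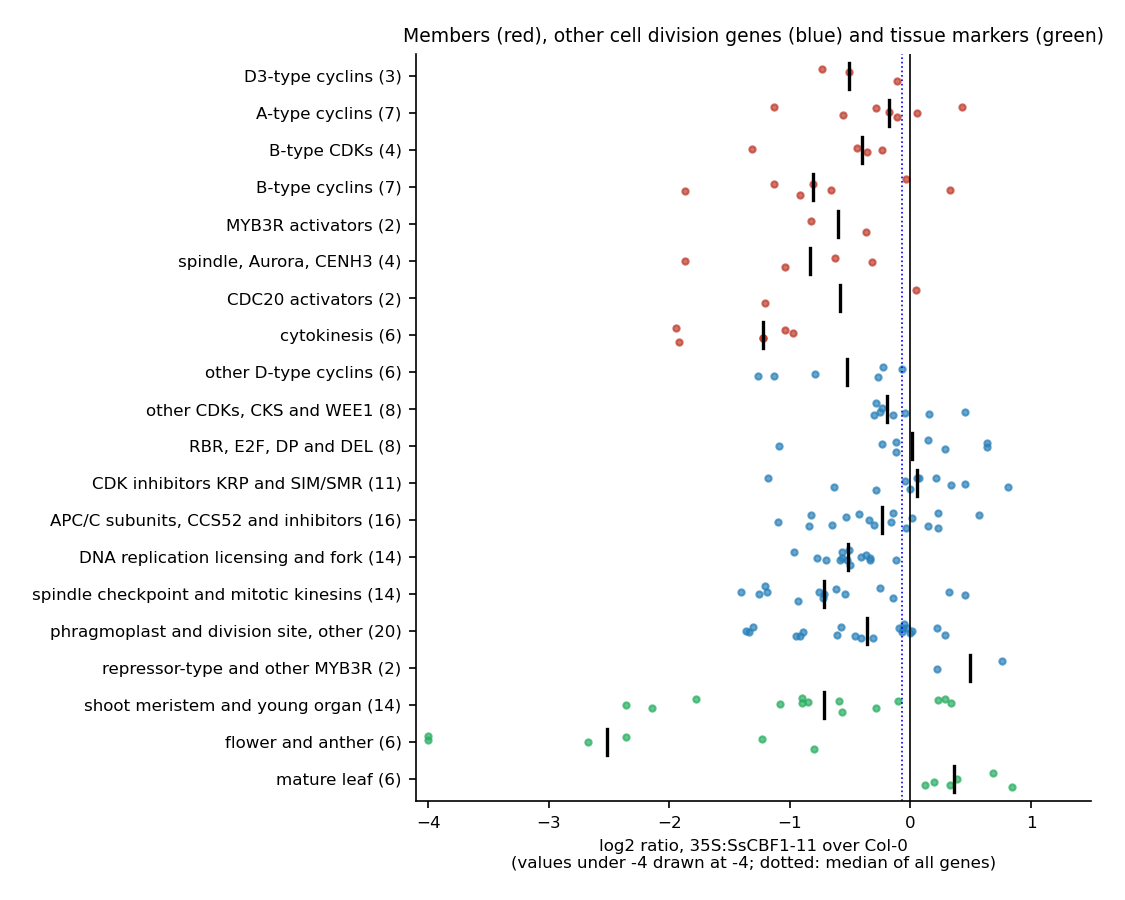
Log2 ratio of *35S:SsCBF1-11* over Col-0 for the genes with at least 10 reads in each role group of the 39 (red), each list of other cell division genes (blue) and each tissue list (green), with the number of genes in brackets, the median of each list as a black bar and the median of all genes as a dotted line. Values under the axis limit are drawn at the limit. Cytokinesis has the lowest median of the role groups, -1.22, and the flower and anther list the lowest of all, -2.51.

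When pools were taken to vary with a coefficient of 0.1, in edgeR's exact test, 1 of the 39 genes, *POK2*, was still called (adjusted p = 3.03e-04), while AT1G76540 had an adjusted p of 0.0102 and *TPX2* one of 0.0174. With a coefficient of 0.2, 0 were called, and the adjusted p of *POK2* was 0.115 (edgeR's exact test), with 7 of the 39 lower at an unadjusted p under 0.05 beside 2.38% of all genes.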

How the data were processed

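The authors pooled the aerial parts of 20 plants per genotype, purified mRNA, made double-stranded cDNA without a strand mark and sequenced it (Illumina HiSeq). TAIR10 and CASAVA 1.7 are named in the submitters' processing notes. Not given in the sources used here are the aligner, the rule for counting and the strand setting. The deposited table of 33602 genes gives the authors' count of reads and their RPKM for each library. These RPKM values equal the deposited counts per listed length and library total in 100% of genes (relative tolerance 1e-06). The authors' fold, log2 and q-value columns, and the pathway and Gene Ontology files, were not used.

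Each gene with at least 1 read (22319) was tested by an exact two-sided binomial test against the libraries' shares of all reads, 42.2% for 35S:SsCBF1-11, with Benjamini-Hochberg adjustment. The procedure was tested on simulated counts with counting error only, in which the changed genes were drawn from those with at least 50 reads. That test does not cover the spread between pools or genes with fewer reads. A pseudocount of 0.5 reads was added for log2 ratios. Intervals of ratios are Clopper-Pearson 95% intervals, and 0 reads were taken as at most 3. Both cover counting error only. They treat reads as independent molecules, which reads are not, so they can understate that error. The members and all lists were chosen with earlier results of these data known. Called members, up to 3 per role group with the largest log2 ratio in size (at least 20 reads) and the most abundant of each group were to be given in full, and for other lists the called genes and up to 2 with the largest log2 ratio in size (at least 50 reads). Sequences, overlaps and positions came from RefSeq's TAIR10.1, in which all 39 member models were found by name. These models can be longer than the deposited ones, as for *AUR1* (1510 bases against 1171) and *KNOLLE* (1386 against 1191). The percentages of overlap and of shared stretches describe the RefSeq models. The destruction box of the cyclins was not analysed here.

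As alternatives, libraries were scaled by TMM (edgeR), by size factors (DESeq2), by the upper quartile or by totals that leave out the 10 most abundant genes. Others were a filter at 10 reads, the nuclear protein-coding genes alone, a pseudocount of 1, a fold of 1.5, an adjusted p of 0.05, and the exact test of edgeR for pools assumed to vary with a coefficient of 0.1, 0.2 or 0.4. Python 3.11.15 (numpy 2.4.6, pandas 2.3.3, scipy 1.17.1, matplotlib 3.10.9) and R 4.3.3 (edgeR 4.0.16, DESeq2 1.42.0) were used.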

Additional observations from a re-analysis of the deposited data

How the results depend on the processing

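*CDKB2;1*, *POK2* and *TPX2* were called under each other scaling, read filter, pseudocount and the fold of 1.5. At an adjusted p of 0.05, 7 members were called lower, the others being *AUR2* (-1.04), *CDC20.1* (-1.21), *HINKEL* (-1.22) and *MAP65-3* (-1.95). With an assumed coefficient of variation of 0.1, 0.2 and 0.4 between pools, 1, 0 and 0 members were called. The members' median log2 ratio lay between -0.69 and -0.58. *CYCB2;4* changed sign, to 0.033 with TMM, 0.039 with DESeq2's size factors and 0.013 with the upper quartile. *AUR2* and *TETRASPORE* came inside 2-fold, at -0.974 and -0.972 with TMM and -0.968 and -0.966 with DESeq2's size factors. With the upper quartile they lay at -0.994 and -0.992. *TETRASPORE* lay at -0.996 with a pseudocount of 1, and *KNOLLE* passed 2-fold, at -1.01, among nuclear protein-coding genes. Over all genes, 409 were lower and 232 higher at a fold of 1.5, and 413 and 189 at an adjusted p of 0.05. With the 3 coefficients, 82, 21 and 0 were lower and 64, 18 and 2 higher. Of the other cell division genes, 2 were called lower among nuclear protein-coding genes, 2 at a fold of 1.5, 4 at an adjusted p of 0.05 and 0 with each coefficient. Of the tissue genes, 3, 2 and 0 were called lower with the 3 coefficients, and 2 were called higher at a fold of 1.5. The cause of each change was not tested beyond the setting itself. No paired analysis was possible because each genotype has 1 library, and for the same reason no library could be left out. Of the 4 members with under 10 reads, 3 had intervals that included 1, the exception being *AUR3*.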
